A study of Rattus norvegicus with 4 samples.

Results

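The uroplakins and basal keratins are marker genes of urothelium, the lining of the renal pelvis, ureter and bladder. They were followed here in rat kidney allografts as probes whose annotated symbol was Upk1a, Upk1b, Upk2, Upk3a, Upk3b, Krt5 or Krt14. These 7 genes were selected on their log ratios, which are very large and differ between arrays, so these ratios are given as a description and no test is read from them. Features, the array spots that each carry a probe, were found under 5 of the 7 symbols, namely Upk1a, Upk1b, Upk3a, Krt5 and Krt14. They amount to 8 of 45220 features, and to 5 of the 14871 genes that have a symbol. Ratios of Upk2 and Upk3b were not analysed here.

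Lewis rats carrying an allogeneic kidney were given an apolipoprotein E (ApoE)-mimetic peptide, 6 mg/kg, or else a control peptide, by daily intravenous injection, and the grafts were taken on day 4. Both peptide groups thus share the strain, the transplantation, the injections and the sampling day, and the labels give neither the donor strain nor which part of the sliced graft went into each extract. Each of the 4 two-colour Agilent arrays carried ApoE-mimetic RNA against control RNA, with the ApoE-mimetic sample in Cy5 on replicates 1 and 3 and in Cy3 on replicates 2 and 4. The replicates are biological by the series' design text.

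The deposited values are log ratios of the 2 channels, taken here as log2, and are not levels, so no gene's abundance can be read from them and no gene can be ranked by level. The direction of the ratio is not stated. In the main reading each column is Cy5 over Cy3 and replicates 2 and 4 are turned, so that a positive value means higher with the ApoE-mimetic peptide. In the other reading the authors had already turned the columns, and both are given. Replicates 1 and 3, which share a labelled orientation, had a Pearson correlation of -0.238 across 45165 features and of -0.657 across the 13363 features that had a value of their own on every array. Replicates 2 and 4, the other pair of like orientation, had -0.085 across 45148 features and -0.043 across those 13363. Pairs of unlike orientation, across the same 13363, had 0.393 for replicates 1 and 4 and 0.423 for 2 and 3. They had -0.426 for replicates 1 and 2 and -0.267 for 3 and 4. Features are not independent replicates, and these correlations describe the arrays. Array medians lay between -0.58 and -0.04. The widest spread was that of replicate 4, at an SD of 1.26 where the others had 0.87 to 0.89. On that array the median differed across the grid, with -0.80 in its first 10 columns and 0.40 in its last 10.

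Uroplakins are membrane proteins that assemble into the rigid plaques on the apical face of umbrella cells, the superficial cells of urothelium. Uroplakins Ia and Ib, encoded by Upk1a and Upk1b, are tetraspanins, and uroplakins II and III are their partners. Uroplakin Ib binds uroplakin IIIa, the product of Upk3a, and this pairing lets the partners leave the endoplasmic reticulum. Keratin 5 and keratin 14 are the type II and type I chains of the intermediate filament that marks basal cells of urothelium and of other stratified epithelia. Within the kidney, urothelium lines the pelvis, into which the papilla drains.

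The promoters of the uroplakin pair Upk1b and Upk3a, which had the widest ratios, and of Krt5, the basal keratin with a window, are shown because these genes are described together below. The windows run from 250 bases before the annotated start to 50 bases after it, are from RefSeq on build GRCr8, and lie at chr11:75459131-75459430 on the + strand, chr7:118014540-118014839 on the + strand and chr7:134730520-134730819 on the - strand. Windows were held for 5 of the 7 genes, namely Upk1a, Upk1b, Upk3a, Upk3b and Krt5. The motif counts thus include Upk3b, which has no ratio here, and leave out Krt14. Capitals mark every match on either strand to the motifs searched.
Upk1b: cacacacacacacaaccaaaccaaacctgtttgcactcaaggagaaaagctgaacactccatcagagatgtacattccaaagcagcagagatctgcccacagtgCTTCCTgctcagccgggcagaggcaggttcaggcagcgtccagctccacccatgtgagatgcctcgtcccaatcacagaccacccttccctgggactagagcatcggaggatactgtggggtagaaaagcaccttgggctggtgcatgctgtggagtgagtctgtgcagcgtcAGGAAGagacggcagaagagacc
Upk3a: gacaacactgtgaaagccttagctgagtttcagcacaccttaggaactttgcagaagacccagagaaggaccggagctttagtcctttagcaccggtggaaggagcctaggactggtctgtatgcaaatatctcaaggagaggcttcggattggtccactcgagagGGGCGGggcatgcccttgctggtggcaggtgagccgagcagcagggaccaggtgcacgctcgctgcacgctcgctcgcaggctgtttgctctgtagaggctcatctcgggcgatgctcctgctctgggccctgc
Krt5: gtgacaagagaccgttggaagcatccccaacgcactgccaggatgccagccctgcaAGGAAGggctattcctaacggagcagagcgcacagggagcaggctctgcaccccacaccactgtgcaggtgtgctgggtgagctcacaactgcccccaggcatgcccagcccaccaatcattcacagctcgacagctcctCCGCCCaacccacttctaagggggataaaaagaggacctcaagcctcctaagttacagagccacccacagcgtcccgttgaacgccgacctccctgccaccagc

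Of 6 motifs searched, none overlapped another in these windows. The ETS motif AGGAAG was present in 3 of 5 member windows, those of Upk1a, Upk1b and Krt5, and in 34.5% of all 33469 windows of this length. The GC box GGGCGG was present in 2 of 5, those of Upk3a and Krt5, and in 33.1% of all windows. The TATA box, searched as TATAAA, had 0 matches in the 5 windows and was present in 14.2% of all. The letters AGATAA, bound by factors such as Gata3, had 0 matches and were present in 11.6% of all windows. The forkhead letters TGTTTAC had 0 matches, with 3.78% of all windows holding them. The Grainyhead letters CCGGTT had 0 as well, with 7.04% of all windows holding them.

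Upk1b gave the lowest deposited ratio of the whole series on 1 of its features. The second of its 3 features had -11.33, -5.73, 6.87 and -3.98 on replicates 1 to 4. This was the lowest of 45172 values on replicate 1, the lowest of 45162 on replicate 2 and the highest of 45194 on replicate 3, whereas on replicate 4 it was the 85th lowest. Replicates 1 and 3 hold the ApoE-mimetic RNA in the same dye by their labels, so this gene's largest negative and largest positive ratios fell on arrays of 1 orientation.

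The other Upk1b features were far less extreme. The first had -1.73, 0.77, -0.44 and -2.42, and the third, which targets the same transcript accession as the second, had -3.45, 0.07, 0.00 and -2.43. All 3 were low on replicates 1 and 4, but on replicate 3 only the second stood above the array median by more than 1 unit. The first feature held a value shared by more than 2 features on 4 of 4 arrays and the third on 3 of 4, which is taken here as the mark of a dim feature, and the second on none. As the mean over its features, Upk1b had -5.50, -1.63, 2.14 and -2.94. On replicate 4, whose median differed across the grid, the second feature lay at column 82, where the median of the neighbouring columns was 0.52, and its value became -4.50 once that median was subtracted.

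Upk3a followed the second Upk1b feature on 3 of the arrays. Its feature had -10.42, 0.47, 5.04 and -3.64 on replicates 1 to 4. It was the lowest but for Upk1b on replicate 1, the 3rd highest on replicate 3 and the 132nd lowest on replicate 4. On replicate 2, where the second Upk1b feature had its lowest rank, Upk3a lay near the array median, with a value that 36 features shared.

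Upk1a, whose protein pairs with uroplakin II, ran the same way at a smaller size. Its feature had -2.51, -0.43, 0.94 and -2.85, and shared its value with more than 2 features on 4 of 4 arrays. As means over features, the 3 uroplakin genes were low on replicates 1 and 4 and high on replicate 3, where the Upk1b mean rested on its second feature. On replicate 2, Upk1a and Upk3a lay near the array median, at -0.39 and 0.51 relative to it, with shared values. The Upk1b mean was at -1.59 there, which also rested on its second feature.

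**Figure D1:**
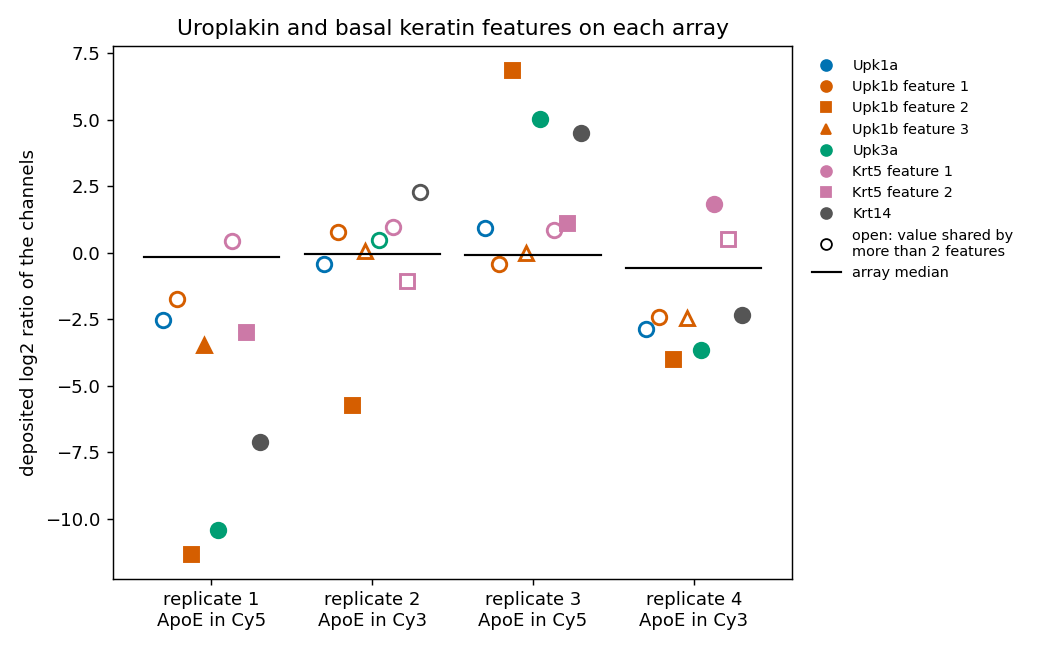
Deposited log2 ratio (vertical axis) of each of the 8 features on each array (horizontal axis, with the dye that held the ApoE-mimetic RNA); open symbols are values that more than 2 features share and lines are array medians. The second Upk1b feature, Upk3a and Krt14 lie far below the median on replicate 1 and far above it on replicate 3.

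Among the basal keratins, Krt14 moved with the uroplakins. Its feature had -7.11, 2.27, 4.49 and -2.33 on replicates 1 to 4. That placed it 6th lowest on replicate 1 and 12th highest on replicate 3, and on replicate 2 it was above the array median, on the opposite side from Upk1b. Its value on replicate 2 was held by 3 features, and it had a value of its own on the other arrays.

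Krt5, the filament partner of keratin 14, did not show the same size. Its first feature had 0.43, 0.96, 0.84 and 1.85 and its second had -2.98, -1.07, 1.13 and 0.51, so the features disagreed in sign on replicates 1 and 2. The first shared its value with more than 2 features on 3 arrays and the second on 2. As the mean of both, Krt5 had -1.28, -0.05, 0.98 and 1.18, and it was the only member gene above the array median on replicate 4.

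The member features together gave 32 values, of which 18 were shared by more than 2 features and 14 were not, and 0 were missing. Only the second Upk1b feature had its own value on all 4 arrays. Without intensities, whether a channel stood at its floor in the extreme ratios was not tested. The value of -11.33 is also the only 1 of the series larger in size than 11.09, the most that natural logs of a 16-bit scan would allow, and this is why the values are taken as log2. A 16-bit scan is an assumption, so the log base is not settled.

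Relative to each array's median, the median of the 5 member genes was -5.33, -0.01, 2.24 and -2.26 on replicates 1 to 4. On replicate 1 all 5 genes lay below the array median, between -10.24 and -1.10, and 4 of 5 lay at least 2 log2 units below it, where 2.09% of all genes did. On replicate 3 all 5 lay above it, between 1.04 and 5.14, and 3 of 5 were at least 2 units above it, where again 2.09% of all genes were. On replicate 4, 3 of 5 lay at least 2 units below, against 2.19% of all genes, and on replicate 2, 1 of 5 lay at least 2 units above, against 1.85%. Since the genes were picked for such ratios, nothing is read from these shares. Below the array median on replicates 1 and 4 and above it on replicate 3, a pattern defined after the values were seen, were 4 of 5 member genes, all but Krt5, and 15.2% of all genes.

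The ranges between arrays placed some of the member features among the widest of the table, and wide ranges are what the members were chosen for. The second Upk1b feature spanned 18.2 log2 units, Upk3a 15.45 and Krt14 11.61, and they ranked 2nd, 3rd and 8th of all features. Krt5 and Upk1a were outside that company, since their widest features spanned 4.11 and 3.78 units and ranked 2169th and 3235th. The median range of the 5 member genes was 7.65 units, against 1.51 over all genes.

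Several other genes stood beside them in that ranking, named here after their values were seen. Krt15, a further keratin of basal cells, had -10.31, 4.08, 4.65 and -5.40 on replicates 1 to 4, close to Upk3a on replicates 1 and 3. Sprr1a, a protein of the cornified envelope, had -7.00, -0.18, 4.40 and -1.35. Sptssb, a small subunit of serine palmitoyltransferase, had -9.76, -0.73, 4.80 and -1.35. Each of these was low on replicate 1 and high on replicate 3, as the members were.

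Fxyd3, which encodes a regulator of the sodium pump, had -8.58, 3.40, 5.05 and -6.27 on its wider feature and the same sides as Krt14 on every array. Its other feature had -3.04, 0.33, -2.15 and -2.15, and so lay on the opposite side on replicate 3. That feature shared its value with more than 2 features on 2 arrays. Slc14a2, the urea transporter of the inner medulla, had the widest feature of all, with -4.82, 10.51, 3.76 and -8.31. The extremes of that feature fell on replicates 2 and 4 and not on 1 and 3, so its order of arrays was not that of Upk1b. The other Slc14a2 features were far less extreme, at -0.90, 0.82, -0.75 and 2.91, and at -2.41, 1.40, 0.89 and -0.40. Pck1, a gluconeogenic enzyme of the proximal tubule, had -5.63, 6.36, 1.99 and -2.50 on its widest feature. It was highest on replicate 2, as the widest Slc14a2 feature was.

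**Figure D2:**
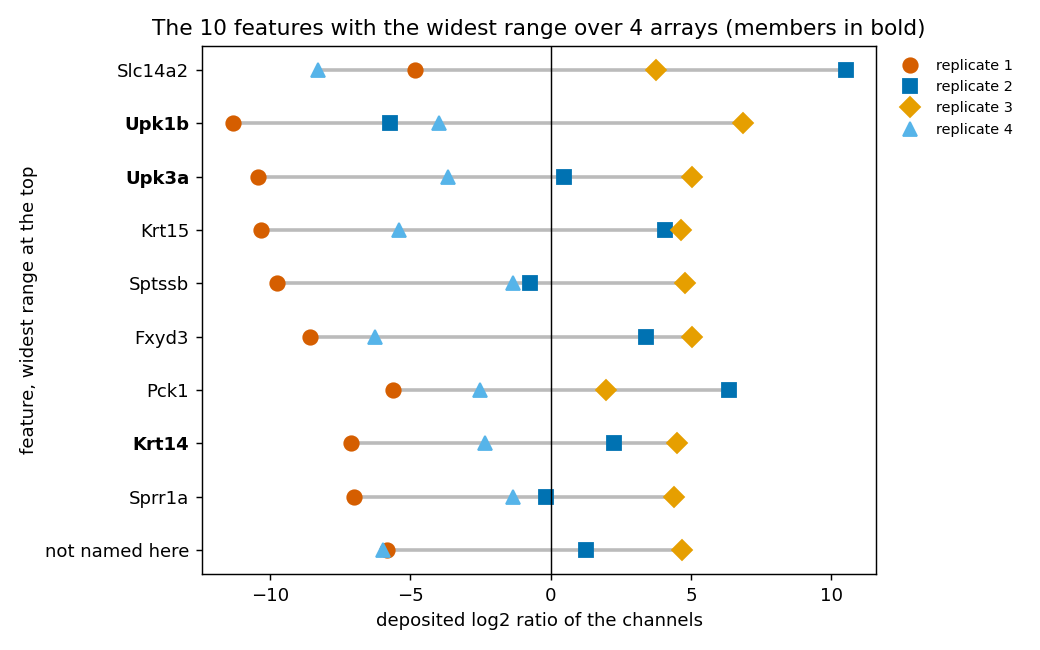
Deposited log2 ratio (horizontal axis) on each array for the 10 features with the widest range over the 4 arrays, widest at the top, with uroplakins and keratins of the chosen set in bold; grey bars join the lowest and highest value. Every feature drawn has replicate 1 at a negative value and replicate 3 at a positive one.

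For the comparison of the peptides, the ratios of replicates 2 and 4 were turned. Upk1b then had -5.50, 1.63, 2.14 and 2.94 as ApoE-mimetic over control, with a mean of 0.30 ± 3.91 (SD, n = 4). Upk1a had -2.51, 0.43, 0.94 and 2.85, with a mean of 0.43 ± 2.22. Both were higher with the ApoE-mimetic peptide on 3 of 4 arrays, and replicate 1 was the exception for each. For Upk1b, the side on replicates 2 and 3 rested on its widest feature. Its other features had -1.73, -0.77, -0.44 and 2.42, and -3.45, -0.07, -0.005 and 2.43, once turned. These were higher with the ApoE-mimetic peptide on replicate 4 only. The Upk1a feature shared its value with more than 2 features on 4 of 4 arrays. The second Upk1b feature on its own had -11.33, 5.73, 6.87 and 3.98, with a mean of 1.31 ± 8.51 (SD, n = 4), and a mean of -3.54 ± 7.62 with columns read as already turned.

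Upk3a had -10.42, -0.47, 5.04 and 3.64, with a mean of -0.55 ± 6.98 (SD, n = 4), and Krt14 had -7.11, -2.27, 4.49 and 2.33, with a mean of -0.64 ± 5.16. Krt5 had -1.28, 0.05, 0.98 and -1.18, with a mean of -0.35 ± 1.08. These genes were higher with the ApoE-mimetic peptide on 2 of 4 arrays. Every member's mean was smaller than the spread between its arrays.

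The median of the 5 means was -0.35 log2 units, against 0.04 over all genes, and became 1.52 without replicate 1, which held the lowest ratio of every member. With columns read as already turned, the means were -1.98 ± 3.19 for Upk1b, -1.21 ± 1.79 for Upk1a, -2.14 ± 6.56 for Upk3a, -0.67 ± 5.15 for Krt14 and 0.21 ± 1.13 for Krt5 (SD, n = 4). Their median was -1.21, against -0.24 over all genes. Neither reading put a member on 1 side on all 4 arrays. Of all genes, 8.19% had 1 sign on all arrays in the main reading and 17.8% in the other.

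**Figure D3:**
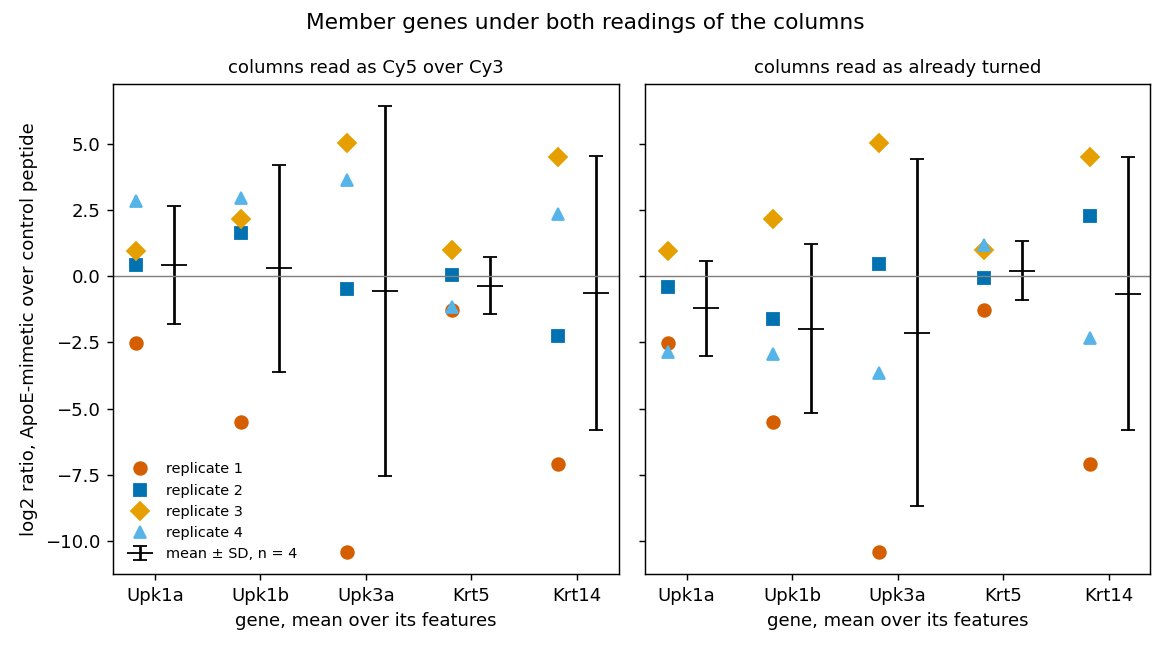
Log2 ratio of ApoE-mimetic over control peptide (vertical axis) for each member gene (horizontal axis), by replicate, with mean ± SD over 4 arrays in black; the left panel reads the columns as Cy5 over Cy3 and the right panel as already turned. The error bars cross 0 for every gene in both panels, and replicate 1 is the lowest point of every gene on the left.

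Across the whole table limma, fitted with a peptide and a dye term, called 0 of 14847 genes with a value on every array at an adjusted p under 0.05 (0.0%), with 382 at an unadjusted p under 0.05. Without replicate 2 that unadjusted count became 1374, and with dim or saturated features left out it was 42 of 6731 genes, with 0 called in both. With columns read as already turned it called 0 of 14847 as well (0.0%), with 611 at an unadjusted p under 0.05. Over features singly, 0 of 45094 were called (0.0%). No other tool was run.

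Other genes of urothelium were taken as a list of 20 genes of umbrella cells and urothelial differentiation, of which 17 had a feature. The median gene of the list lay at -1.02, 0.86, 0.11 and -0.19 relative to the array median on replicates 1 to 4. On replicate 1, 13 of 17 lay below the array median, and on replicate 3, 5 of 17 did, against 52.9% and 50.8% of all genes. In the limma fit 0 of 17 passed in either direction, and 1 was at an unadjusted p under 0.05. Over the 7 genes with a feature neither dim nor saturated, the median was larger in size on every array, at -1.53, 1.21, 0.88 and -0.23. That left it closer to the array median than the members' median was on replicates 1, 3 and 4, and farther from it on replicate 2.

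Single genes of this list and of the lists below are given as deposited, and list medians relative to the array median. Among these genes Aqp3, a water and glycerol channel found in urothelium and in collecting duct, had -3.36, 0.80, 1.33 and -0.62, and the same sides as Upk3a. On replicate 4 Aqp3 was almost at the array median, at -0.04 relative to it, where Upk3a was at -3.06. Upk3bl1, a relative of the uroplakin III genes, had -2.44, 3.01, 0.34 and 0.01, and so was highest on replicate 2 and, unlike the members, well under 1 unit on replicate 3. Tbx3, a T-box transcription factor, had -1.78, 1.57, 0.01 and -0.87. All 3 were low on replicate 1, and only Aqp3 was also clearly high on replicate 3.

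Of 22 genes of basal and stratified epithelium, 18 had a feature. Their median lay at -0.29, 0.11, 0.29 and -0.10 relative to the array median. Below the array median were 13 of 18 on replicate 1, 8 of 18 on replicate 3 and 9 of 18 on replicate 4. Of all genes, 52.9%, 50.8% and 48.2% lay below it on these arrays. Over the 5 genes with a feature neither dim nor saturated, the median of the list was larger in size on every array, at -1.31, 0.46, 1.16 and -0.24. In the limma fit 0 of 18 passed, with 0 at an unadjusted p under 0.05. Krt15 is described above. Serpinb5, which encodes the epithelial serpin maspin, had -2.14, -0.49, 1.12 and -1.32, and Sbsn, which encodes suprabasin of differentiating keratinocytes, ran the other way with 0.78, -3.17, -1.72 and 0.63. Tp63, the transcription factor of basal cells, is named after its values were seen. It had -6.72, -1.34, 2.42 and -2.83 on its first feature, the same sides as the second Upk1b feature on every array, and 1.79, -0.09, 0.03 and -2.24 on its second, and both shared values on 2 or more arrays.

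Simple epithelial keratins, which tubule and collecting duct cells also make, had a median of -1.22, 1.03, 0.59 and 0.06 over 6 genes. Krt19 had -2.57, 1.79, 0.69 and -1.98, Krt8 had -1.59, 1.64, 0.28 and -1.40, and Krt7 had -1.70, 0.82, 0.80 and -0.96. All 6 lay below the array median on replicate 1, and 0 of 6 did on replicate 2, against 52.9% and 50.4% of all genes. Over the 5 with a feature neither dim nor saturated, the median was -1.42, 1.04, 0.79 and -0.38, and so below the array median on replicate 4. In the limma fit 0 of 6 passed, with 0 at an unadjusted p under 0.05.

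The same arrays also differed in markers of other compartments of the graft, and their part in the members' ratios was not tested. In bulk tissue, fewer cells of a type cannot be told apart from less RNA per cell. Collecting duct and papilla genes had a median of -1.54, -0.05, 0.83 and -0.89 over 11 genes, with 11 of 11 below the array median on replicate 1, 2 of 11 on replicate 3 and 9 of 11 on replicate 4. Of all genes, 52.9%, 50.8% and 48.2% lay below it on these arrays, and of genes with a feature neither dim nor saturated 66.2%, 52.4% and 49.5% did. Aqp2, the vasopressin-regulated water channel of the collecting duct, had -3.64, 0.57, 1.65 and -1.97 as the mean over 10 features, and Fxyd4, a sodium pump regulator there, had -3.17, 0.41, 1.22 and -1.47. Both had the sides of Upk3a on every array.

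Tubule and glomerular lists had the same sides as the members on replicates 1, 3 and 4. Proximal tubule genes had a median of -1.14, 1.40, 1.19 and -0.70 over 12 genes, with the organic anion transporter gene Slc22a6 at -4.39, 2.98, 1.71 and -5.70. Thick limb and distal tubule genes had -0.37, -0.39, 1.11 and -0.39 over 6 genes, with Umod, which encodes uromodulin, at -1.37, -1.27, 0.75 and -1.65. Podocyte genes had -0.80, 0.27, 0.46 and -1.48 over 4 genes, with Nphs1, which encodes the slit diaphragm protein nephrin, at -1.50, -0.24, 1.82 and -2.12. In each of these lists, and in the collecting duct, urothelial and basal lists, the median lay below the array median on replicates 1 and 4 and above it on replicate 3, as the members' median did. With only genes that have a feature neither dim nor saturated, the thick limb median was -1.20, -0.71, 0.85 and -0.80 over 3 genes, and the podocyte median was -1.28, -0.03, 0.76 and -1.42 over 3 genes.

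Smooth muscle genes, expressed in the wall of the pelvis and in vessels, had a median near the array median on every array, at 0.06, -0.11, 0.15 and 0.00 over 10 genes. Of these, 1 of 10 lay below the array median on replicates 1 and 4 and above it on replicate 3, near the 15.2% of all genes. The muscle filament gene Des had 0.11, -0.27, -1.02 and -1.14. T cell genes stood on the opposite side from the members on replicates 1 and 3, with a median of 0.61, -1.63, -1.39 and -1.40 over 8 genes, and Cd2, an adhesion receptor of T cells, had 0.01, -1.69, -1.21 and -2.41.

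Mesothelial genes were listed because Upk1b and Upk3b are also made in mesothelium. Their median was -0.48, -0.17, 0.07 and 1.06 over 8 genes. Over the 3 with a feature neither dim nor saturated it was -2.19, -0.27, 0.95 and -0.15, so the side on replicate 4 turned. Msln, which encodes the mesothelial surface protein mesothelin, had -4.72, -1.03, 0.85 and -2.17. These were the sides of the Upk1b mean on every array, a mean whose side on replicate 2 rested on its second feature. Efemp1, which encodes the extracellular matrix protein fibulin-3, had -2.37, -0.31, 1.59 and 0.42, and differed in side from Upk1b on replicate 4. Gpm6a, a membrane glycoprotein, had 0.57, 0.78, -0.70 and -0.74, the reverse sides of the Upk1b mean on replicates 1, 2 and 3. Over all 98 list genes of this report, counted once each, limma called 0 in the main reading. There 3 of 98 were at an unadjusted p under 0.05, beside 382 of all 14847 genes. With columns read as already turned, 8 of 98 were so, beside 611 of all 14847 genes. Of these 8, 4 were T cell genes.

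**Figure D4:**
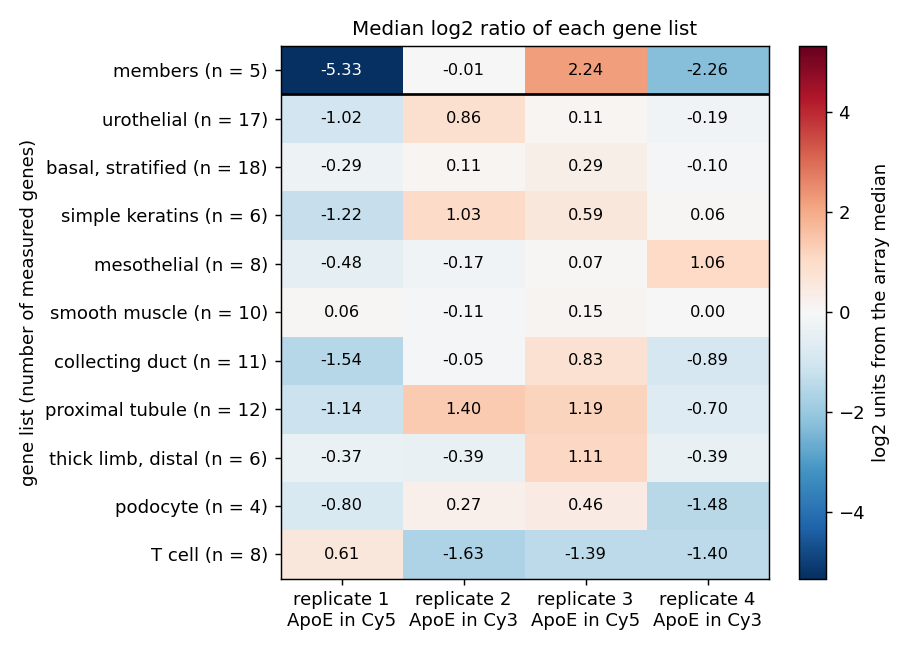
Median log2 ratio relative to the array median (colour and printed value) for the 5 member genes and for each gene list (rows) on each array (columns). The members, urothelial, basal, collecting duct, proximal tubule, thick limb and podocyte rows are negative on replicates 1 and 4 and positive on replicate 3, and the T cell row is positive on replicate 1 only.

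The genes nearest to the median profile of the members were sought by Euclidean distance over the 4 values relative to the array medians. Candidates were 6724 other genes with a feature that had its own value on every array, without placeholder symbols (LOC, RGD or MGC). Single members can lie far from that median profile, such as Upk3a at -10.24, 0.51, 5.14 and -3.06. Msln was the nearest, at a distance of 1.92 log2 units, and Rgn, Aqp2, Slco1a3, Slc6a13, Cyp2d2, Ttc36, Fxyd3, Matn1 and Spp2 followed at 2.17 to 2.54. Each gene enters as the mean over its features, and the 2 Fxyd3 features lay on opposite sides on replicate 3. Msln stood at -4.55, -0.99, 0.95 and -1.58 relative to the array medians, Rgn at -4.13, 1.11, 3.48 and -2.95 and Aqp2 at -3.47, 0.61, 1.75 and -1.39. All 10 were below the array median on replicates 1 and 4 and above it on replicate 3. Their choice by closeness to the members' median all but ensures this, and nothing is read from it. Of genes with a feature neither dim nor saturated, 20.8% had these sides. With 4 arrays such a likeness is a description of these profiles.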

How the data were processed

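Total RNA of the grafts was labelled with Cy3 and Cy5 (Agilent QuickAmp, two-colour), per the labels' protocols. The deposited values are log ratios of the channels computed by the authors, and are taken here as log2. Neither their log base nor their direction is stated. How the arrays were scanned, background-corrected and normalized is not given in the sources used here. 
Only 4 arrays were used, which limits the precision. Features were named from GEO's platform annotation (25353 with 1 symbol, 48 with several, 19819 with none), checked by gene number against RefSeq (GRCr8; 25306 found). A gene's value is the mean over its features. A value held by more than 2 features of an array was taken as dim or saturated (51.2% to 61.9% of values per array). Ratios over all genes were fitted with limma 3.58.1 in R 4.3.3 with the labelled dye orientation and a dye term (two-sided, Benjamini-Hochberg, threshold 0.05), leaving out 24 genes with a missing value. The fit was run on simulated data with large set effects, which does not show how well it finds smaller ones. Members and lists were chosen with earlier results of these data known. Named genes are the members, the 3 per list with the largest absolute value among genes with a feature neither dim nor saturated, any list gene passing the test, and the 10 nearest profiles (of some lists only the leading genes are printed); others are named as chosen after their values were seen. Alternatives changed the reading, centring, dim features, grid position, features' summary, dye term, eBayes and replicates.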

Additional observations from a re-analysis of the deposited data

Results flagged for a closer look

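In the main reading, Upk1b had 1 array far from the other three. As the mean over its features it had -5.50 on replicate 1 and 1.63 to 2.94 on the others, a gap of 0.844 of the whole range, and its second feature had -11.33 on replicate 1 against 3.98 to 6.87, a gap of 0.841 of the range. Both exceed Dixon's critical value for 4 samples. The gene was chosen for large ratios that differ between arrays, so this restates the choice and supports nothing. The values share a feature and are not independent. The gap was looked for in 58 sets of 4 values, and chance flags about 1 in 20 such sets.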

How the results depend on the processing

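Under all gene-wise alternatives, limma called 0 genes at an adjusted p under 0.05. Over features it called 0 with every alternative but 1, so that the count ranged between 0 and 1 when 1 replicate was left out. That 1 was the second Upk1b feature without replicate 1, a feature chosen for its ratios, and the call supports nothing. The members' median ratio of -0.35 was -0.44 with centred arrays, -0.35 with the grid column median subtracted and with the median over features, -1.21 with columns taken as already turned, and between -0.80 and 1.52 when 1 replicate was left out, with the positive value without replicate 1. With dim or saturated features left out only Upk1b was left, at 1.31. Of 41 alternative values of single members, 41 moved by less than the SD over arrays. Leaving 1 of 4 arrays out cannot move a mean by that much. For members with 1 or 2 features, the median over features is the mean itself. Much of that count was thus fixed in advance, and no stability is read from it. Of the 41, 10 had the other sign. Upk3a became 2.74 and Krt14 1.52 without replicate 1, and Upk1a became -0.38 without replicate 4. Upk1b became -0.27 with the median over features and between -0.58 and -0.14 without replicate 2, 3 or 4. With columns taken as already turned, Upk1a, Upk1b and Krt5 became -1.21, -1.98 and 0.21. Without replicate 1, Upk1b became 2.24 ± 0.66 and Upk1a 1.40 ± 1.28 (SD, n = 3), and without replicate 3, Upk3a became -2.41 and Krt14 -2.35. Over all alternatives that left out 1 replicate, Upk1a lay between -0.38 and 1.40, Upk1b between -0.58 and 2.24, Upk3a between -2.41 and 2.74, Krt5 between -0.80 and -0.05 and Krt14 between -2.35 and 1.52. The number of genes at an unadjusted p under 0.05 lay between 326 and 1374 in these fits, against 382 with all arrays. The cause was not tested. Each array is itself a pair of 1 ApoE-mimetic and 1 control sample, so the fit on the ratios used that pairing. The arrays form 1 group, and no further pairing between arrays was used. Without intensities, signal over background cannot be given.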
